A study of Mus musculus with 6 samples.

Results

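The linker histone H1 genes were described across the Pol II ChIP-seq libraries of neural progenitor cells (NPCs) without ARMC5. The family was defined by gene name. Of the 7 genes listed, 6 had signal tables here, namely the clustered genes Hist1h1a, Hist1h1b, Hist1h1c and Hist1h1e and the solitary genes H1f0 and H1fx, and Hist1h1d was not analysed here. They gave 18 of 36321 gene regions and 6 of 12107 genes. Chromatin bound by RNA polymerase II (Pol II) was pulled down with an antibody against the N-terminal part of RPB1 (POLR2A), the largest Pol II subunit. Reads had been counted in the promoter (from 400 bases before to 100 after the transcription start site), the gene body, and the TES region (from 100 bases before to 2000 after the transcription end site).

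The KO group had 3 libraries of NPCs of the genotype Armc5(-/-), and the WT group had 3 libraries of NPCs with normal Armc5. All cells came from e13.5 fetuses. The labels give the strain as 129 sv X CD1, whereas the study's methods give a CD1 x C57BL/6 F1 background for its Armc5 mice. Ganglionic eminences were grown as neurospheres in medium with epidermal growth factor, and spheres of the second passage were used, labelled neural stem cells. The libraries are numbered as 3 pairs of 1 KO and 1 WT library each. How many fetuses went into a library was not given in the sources used here. ARMC5 is the substrate-recognition subunit of a ubiquitin ligase for POLR2A, so Pol II occupancy of genes is the question these libraries address. The Armc5 gene was not analysed here, and the genotype was therefore not checked on its own counts.

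Linker histones bind the nucleosome where DNA enters and leaves it, and they compact the chromatin fibre. The Hist1h1 genes are replication-dependent histone genes. They lie among core histone genes in the large histone cluster, have no introns, are transcribed mainly in S phase, and yield mRNAs that end in a conserved stem-loop in place of a poly(A) tail. H1f0 and H1fx stand alone in the genome, outside the histone clusters. H1f0 encodes the replication-independent subtype known for accumulating in differentiated cells, and H1fx encodes a divergent somatic subtype. In RefSeq the 6 genes are named H1f1, H1f5, H1f2, H1f4, H1f0 and H1f10.

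In GENCODE vM21 (GRCm38), Hist1h1a lies on the plus strand of chromosome 13 at 23763666 to 23764406 and Hist1h1c on the same strand at 23738808 to 23740367. Hist1h1e (23620629 to 23622558) and Hist1h1b (21779883 to 21780625) lie there on the minus strand. H1f0 is a plus-strand gene of chromosome 15 (79028450 to 79030504), and H1fx a minus-strand gene of chromosome 6 (87980421 to 87981637). The windows of Hist1h1a, Hist1h1b and Hist1h1c overlapped no other annotated gene. The gene body and TES windows of Hist1h1e ran into the windows of the histone H2B gene Hist1h2be on the same strand. The TES window of H1f0 ran into Gcat, and the promoters of H1f0 and H1fx lie within antisense transcripts. With the GENCODE ends, 655 bases of the H1fx gene body and 63 of the H1f0 gene body lie there too, so reads in these stretches cannot be assigned to 1 gene. The annotation behind the counts was not given in the sources used here. GENCODE and RefSeq place the ends of Hist1h1c and Hist1h1e far apart, with a gene length of 1560 against 725 bases for Hist1h1c and of 1930 against 782 for Hist1h1e. Which part of these 2 genes counts as gene body is therefore open, whereas the Hist1h1a length was 741 in GENCODE and 745 in RefSeq. For H1f0 and H1fx the start differs, at 79028450 in GENCODE against 79028212 in RefSeq for H1f0 and at 87981637 against 87981482 for H1fx. Which stretch was counted as their promoter is open too.

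The sequences just before the RefSeq start sites are shown because there they set the clustered genes apart from the solitary ones. They are the 150 bases upstream of the RefSeq start (GRCm38.p6), 5′ to 3′ on the gene's strand. Capitals mark AAACACA (the H1 box, an element known from H1 genes), CCAAT (the box bound by NF-Y) or its reverse complement ATTGG, and TATAAA (the TATA box). In Hist1h1a they are read from chr13:23763518-23763667, in Hist1h1b from chr13:21780626-21780775, in Hist1h1c from chr13:23738657-23738806, in Hist1h1e from chr13:23622559-23622708, in H1f0 from chr15:79028062-79028211 and in H1fx from chr6:87981483-87981632.
Hist1h1a: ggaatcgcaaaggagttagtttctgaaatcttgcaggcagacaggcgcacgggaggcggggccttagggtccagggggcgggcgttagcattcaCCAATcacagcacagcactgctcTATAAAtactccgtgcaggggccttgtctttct
Hist1h1b: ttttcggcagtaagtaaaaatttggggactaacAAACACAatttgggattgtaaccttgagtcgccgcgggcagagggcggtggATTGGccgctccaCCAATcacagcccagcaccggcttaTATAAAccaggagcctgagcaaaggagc
Hist1h1c: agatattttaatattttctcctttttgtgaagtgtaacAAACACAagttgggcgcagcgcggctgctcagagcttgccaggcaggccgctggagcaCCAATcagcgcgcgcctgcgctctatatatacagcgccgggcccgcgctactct
Hist1h1e: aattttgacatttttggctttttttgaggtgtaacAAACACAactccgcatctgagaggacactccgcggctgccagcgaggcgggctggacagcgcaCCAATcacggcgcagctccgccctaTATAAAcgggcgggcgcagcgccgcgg
H1f0: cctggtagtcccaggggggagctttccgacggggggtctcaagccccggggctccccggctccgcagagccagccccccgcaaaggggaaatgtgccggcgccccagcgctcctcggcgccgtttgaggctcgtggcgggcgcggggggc
H1fx: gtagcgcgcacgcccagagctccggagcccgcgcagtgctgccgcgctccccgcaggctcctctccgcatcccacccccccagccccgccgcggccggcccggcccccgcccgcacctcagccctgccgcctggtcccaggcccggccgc

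Both strands of the 250 bases upstream of the RefSeq start were searched for each motif. The stretches before the GENCODE starts of H1f0 and H1fx were not searched in full. Motif absences in these genes therefore hold for the RefSeq starts only. The H1 box began at -117 in Hist1h1b, -112 in Hist1h1c and -115 in Hist1h1e, counted from the start site, and these letters were not found in Hist1h1a, H1f0 or H1fx. AAACACA was present in 6.25% of 32851 promoters of the same length. All 4 clustered genes had a forward CCAAT at -56 (Hist1h1a), -53 (Hist1h1b), -54 (Hist1h1c) or -52 (Hist1h1e), and neither solitary gene had these letters, which occurred in 33.8% of all promoters. Hist1h1b had a further forward CCAAT at -168 and a reverse one at -66. TATAAA was found at -33 in Hist1h1a, -28 in Hist1h1b and -27 in Hist1h1e, against 12.4% of all promoters, and not in the other 3 genes. GGCGG, the core of the GC box, was found in 5 of the 6 genes, Hist1h1c being the exception, and in 45.1% of all promoters. Among the 4 clustered genes Hist1h1a was thus the one without AAACACA and Hist1h1c the one without TATAAA. No overlaps between these motifs were found in the capitals shown.

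The 3′ ends of the clustered genes are shown because the class is defined by them. Capitals mark the 16-base stem-loop bound by SLBP, the stem-loop binding protein, with 5 bases on either side. It was letter for letter the same in all 4 genes, and it lay 4 to 5 bases before the RefSeq end of each gene. The consensus of this stem-loop, searched on the strand of the gene, was not found within 300 bases of the RefSeq ends of H1f0 and H1fx.
Hist1h1a: ccaacGGCTCTTTTCAGAGCCaccaa
Hist1h1b: ccaaaGGCTCTTTTCAGAGCCaccta
Hist1h1c: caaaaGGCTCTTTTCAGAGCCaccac
Hist1h1e: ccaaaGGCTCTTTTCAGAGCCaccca

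The clustered genes are alike enough for reads to be shared. The longest stretch with identical letters was 146 bases between Hist1h1c and Hist1h1e, and Hist1h1d shared 149 bases with Hist1h1c and 122 with Hist1h1e. Hist1h1b shared at most 47 bases with another member. Hist1h1a shared at most 32 bases with any other, and H1f0 and H1fx at most 17. As far as shared reads go, values of Hist1h1c and Hist1h1e are therefore less certain than those of the other members.

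The libraries held 16056262 to 25199455 counted reads in KO and 14528870 to 23808344 in WT, and all 18 linker histone regions passed the filter on low counts of edgeR. Of the precursor markers 10 of 11 were measured, among them Sox2 (38.4, 18.7 and 8.64 CPM over the gene body in KO libraries 1 to 3, against 37.1, 22.4 and 7.88 CPM in WT) and Nes, and 0 were called. CPM stands for counts relative to the TMM-scaled library total, as a rate per 1000000 counts. None of 6 microglia and blood cell markers was measured. The 4 Y-linked gene bodies summed to 106 to 130 CPM in the KO libraries, against 186 and 162 CPM in WT libraries 1 and 2 and 0.731 CPM in WT library 3. WT library 1 stood apart for histone genes, as shown with each result. The scaling is relative to each library, so a rise or fall of Pol II common to all genes would be missed.

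Pol II signal was higher in KO NPCs over the gene body of Hist1h1a and over no other linker histone region by the test used (1 of 18 regions, 0 lower). The background was 0.173% of all gene bodies called higher and 0.033% called lower, 0.165% and 0.00826% of promoters, and 0.0248% and 0% of TES regions. A region was called at a limma adjusted p under 0.1 over all 36321 regions, in a fit with the pair as a block. At an unadjusted p under 0.05, 4 gene bodies, 2 promoters and 2 TES regions of the 6 genes were higher in KO and 0 lower. Over all genes 4.82% of gene bodies, 7.55% of promoters and 1.4% of TES regions were higher at that level. All 6 gene bodies had a log2 fold change above 0, with a median of 0.40, against 45.3% of all gene bodies above 0 and a median of -0.01. KO was higher in every pair for 4 of the 6 gene bodies, 2 of the 6 promoters and 2 of the 6 TES regions, against 13.7%, 18.1% and 7.98% of all genes. All 3 KO libraries lay above all 3 WT libraries in 1 gene body, 1 TES region and 0 promoters, against 1.5%, 0.809% and 2.24% of all genes, and below them in 0 of each, against 0.603%, 3.28% and 0.33%. The median of the 6 genes was 0.22 at promoters and 0.10 in TES regions, against 0.03 and -0.08 over all genes.

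**Figure D1:**
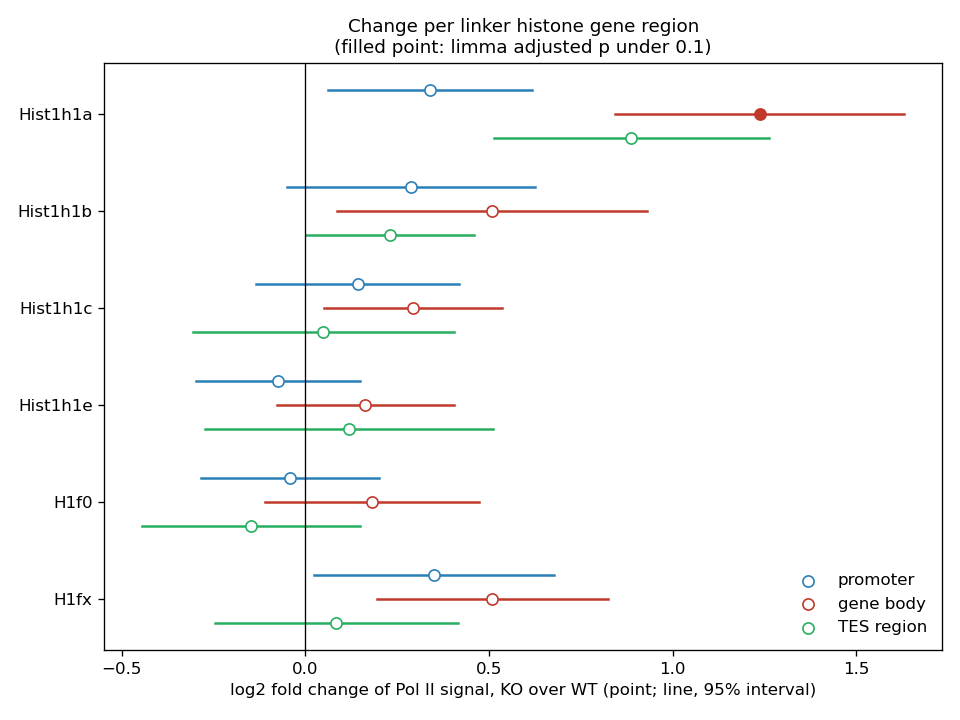
Log2 fold change of Pol II signal, KO over WT, for the promoter (blue), gene body (red) and TES region (green) of the 6 linker histone genes, with lines for the 95% interval. The filled point, the Hist1h1a gene body at 1.24, is the 1 region called at a limma adjusted p under 0.1, and the open points are not called.

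Hist1h1a encodes H1.1, a subtype with restricted expression among tissues. Its gene body held 628, 429 and 277 reads in KO libraries 1 to 3, against 120, 291 and 123 in WT libraries 1 to 3. After scaling it had 22.6, 20.6 and 19.6 CPM in KO, against 5.86, 11.5 and 9.99 CPM in WT. All 3 KO libraries lay above all 3 WT libraries, and they lay close to each other, while WT library 1 was the lowest. The same separation in this direction was seen in 1.5% of all gene bodies. The gene body signal averaged 20.9 ± 1.53 CPM in KO and 9.12 ± 2.93 CPM in WT (SD, n = 3 each). The log2 fold change was 1.24 ± 0.18 (SE, 95% interval 0.84 to 1.63, limma adjusted p = 0.0395), a 2.36-fold rise, with 1.95, 0.84 and 0.97 in pairs 1 to 3. By p it was the 9th and by fold the 5th of 12107 gene bodies. In bulk libraries a larger share of S phase cells and more Pol II per gene in each cell cannot be told apart. The study reported that KO NPCs proliferated more slowly and, once released from a G1 block, were slower to enter S phase. The share of S phase cells in the libraries used here was not given in the sources.

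Without WT library 1, the Hist1h1a gene body value was smaller, at 0.89 ± 0.15, and still called (limma adjusted p = 9.95e-06). Without WT library 3, which had almost no Y-linked signal, the value was 1.34 ± 0.18 (limma adjusted p = 2.33e-05). These fits called 394 and 231 regions higher, against 44 with all libraries. Their lower p-values are therefore not stronger support than the main one. Without KO library 1 the value was 0.89 as well. With the pair block, leaving out 1 library takes the weight from its partner, so such fits cannot separate the libraries of a pair. The call was lost without both libraries of pair 2 (1.52 ± 0.23, limma adjusted p = 0.136) and when gene bodies were scaled and fitted by themselves (1.22 ± 0.20, adjusted p = 0.113). With no block by pair the estimate was 1.25 ± 0.30 and the limma adjusted p 1.00. The value stayed between 0.89 and 1.52 in every fit run.

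In the TES region, Hist1h1a had 10.0, 9.16 and 17.1 CPM in KO, against 4.44, 7.0 and 7.56 CPM in WT. The groups did not overlap here either, which held for 0.809% of all TES regions in this direction. The log2 fold change of 0.89 ± 0.17 missed the threshold (SE, limma adjusted p = 0.113), and it ranked 5th of all TES regions by p. It was called with DESeq2 (0.90 ± 0.23, adjusted p = 0.0495), with TES regions scaled and fitted by themselves (0.96 ± 0.16, limma adjusted p = 0.0187), with RLE scaling (adjusted p = 0.0988), without X- and Y-linked genes (0.0569) and without any 1 library (0.75 to 1.17, limma adjusted p from 0.00953 to 0.0633). It was not called with edgeR's test (adjusted p = 0.102), with no block by pair (1.00) or without pair 2 (0.155). Nor was it called with library totals only (limma adjusted p = 0.175), on the deposited log2 CPM (0.125) or with a filter on low counts (0.117). At the promoter, the signal was 25.0, 17.5 and 13.9 CPM in KO, against 16.8, 17.4 and 9.91 CPM in WT. Here the groups overlapped, and pair 2 hardly differed. The promoter value was 0.34 ± 0.13 (SE, limma adjusted p = 0.512), with 0.57, 0.01 and 0.49 in the 3 pairs.

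**Figure D2:**
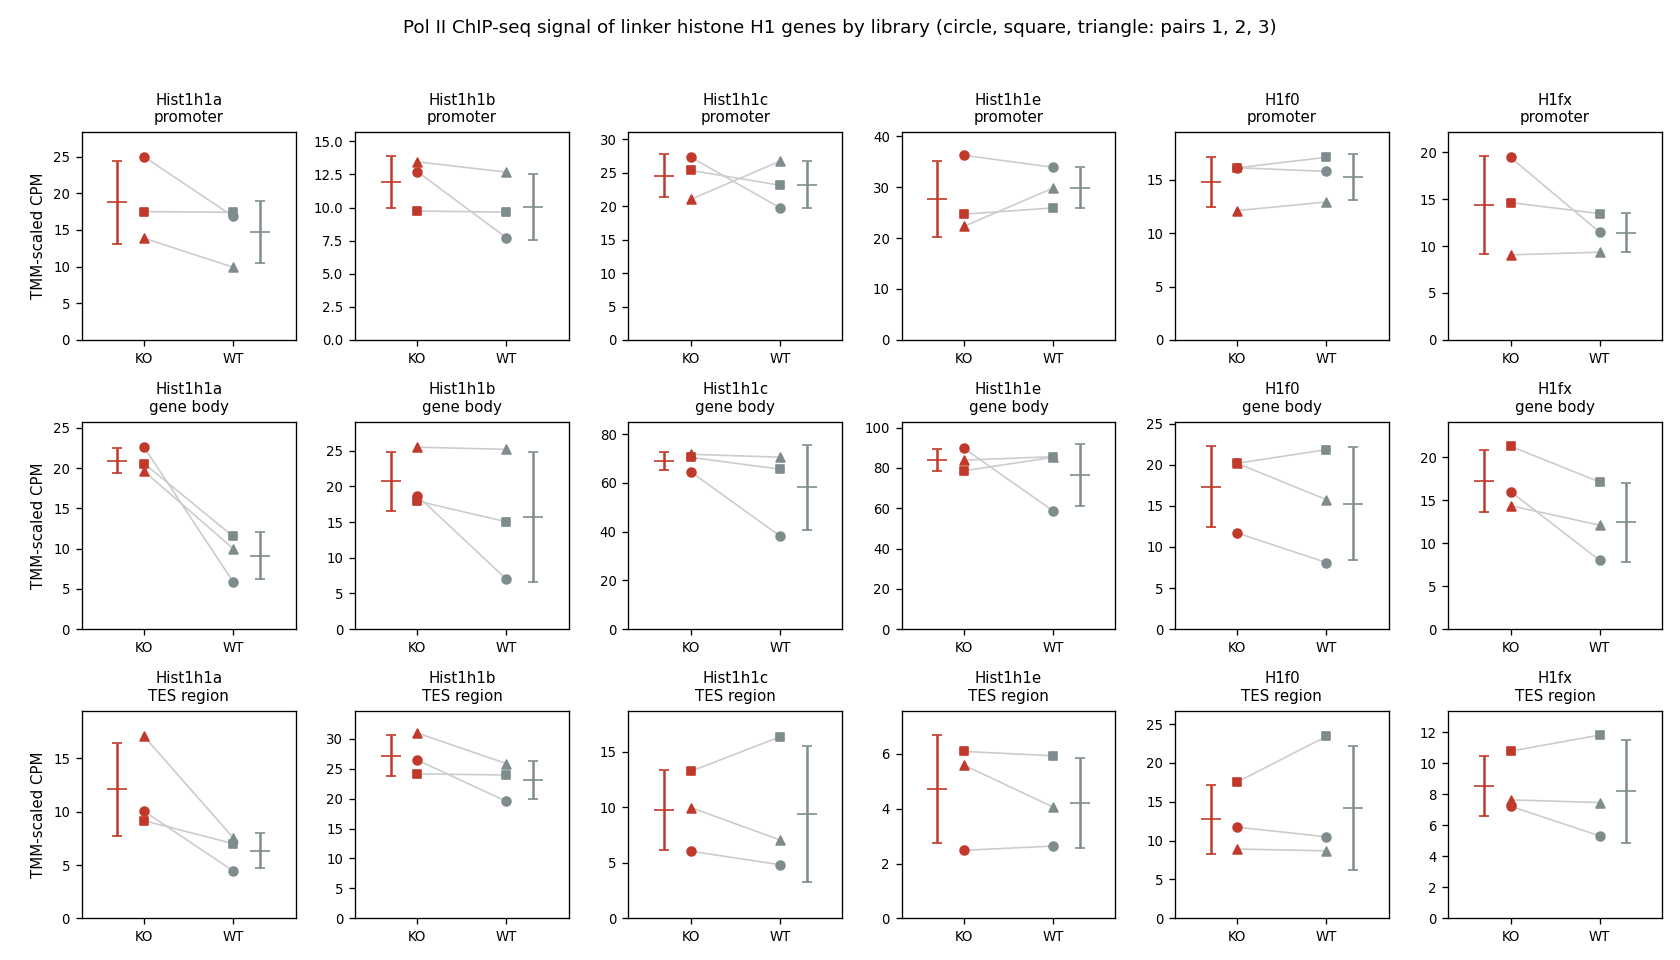
Pol II signal (TMM-scaled CPM) of the 3 regions of each linker histone gene in the KO (red, left) and WT (grey, right) library of each pair, with a line between the members of a pair and the group mean ± SD (n = 3) next to the points. Only in the gene body and the TES region of Hist1h1a do all 3 KO libraries lie above all 3 WT libraries.

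Hist1h1b encodes H1.5, a subtype of dividing cells. Its gene body had 18.7, 17.9 and 25.5 CPM in KO, against 6.98, 15.0 and 25.2 CPM in WT. Only pair 1 differed clearly, through its low WT library, and the groups overlapped. The fitted value was a log2 fold change of 0.51 ± 0.20 (SE, limma adjusted p = 0.518), with 1.42, 0.25 and 0.02 in the 3 pairs. Without WT library 1 or KO library 1 the gene body value was 0.14 ± 0.13 (limma adjusted p = 0.820 and 0.819). Without WT library 3 or KO library 3 it was 0.77 ± 0.18 and passed the threshold (limma adjusted p = 0.0230 and 0.0235). At the promoter Hist1h1b had 0.29 ± 0.16 and in the TES region 0.23 ± 0.11 (limma adjusted p = 0.667 and 0.604).

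Hist1h1c (H1.2) and Hist1h1e (H1.4) encode the most widely expressed clustered subtypes. The gene body of Hist1h1c had 64.5, 70.4 and 71.7 CPM in KO, against 38.2, 65.6 and 70.5 CPM in WT. That of Hist1h1e had 89.8, 78.6 and 83.9 CPM in KO, against 58.7, 85.3 and 85.6 CPM in WT. In both genes WT library 1 stood below the other 5 libraries, and pairs 2 and 3 were nearly level. The log2 fold changes were 0.29 ± 0.11 for Hist1h1c and 0.16 ± 0.11 for Hist1h1e (SE, limma adjusted p = 0.518 and 0.742). Without WT library 1 the gene body value was 0.07 ± 0.09 in Hist1h1c and turned to -0.08 ± 0.08 in Hist1h1e (limma adjusted p = 0.892 and 0.860). Without WT library 3 or KO library 3 that of Hist1h1c was 0.41 ± 0.11 and was called (limma adjusted p = 0.0955 and 0.0983). Their promoters and TES regions had values between -0.07 and 0.14, each with an interval that took in 0.

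Neither solitary gene was called, and the difference between them was not tested. The gene body of H1fx had 16.0, 21.3 and 14.4 CPM in KO, against 8.01, 17.1 and 12.1 CPM in WT. KO was higher in each of the 3 pairs, as in 13.7% of all gene bodies, but the groups overlapped. The log2 fold change of H1fx was 0.51 ± 0.15 (SE, 95% interval 0.20 to 0.82, limma adjusted p = 0.339), with 1.00, 0.31 and 0.25 in the pairs. Without WT library 1 the H1fx value was 0.29 ± 0.14 (limma adjusted p = 0.461). Without WT library 3 or KO library 3 it was 0.60 ± 0.16 and passed the threshold (limma adjusted p = 0.0611 and 0.0615). The gene body of H1f0 had 11.7, 20.2 and 20.2 CPM in KO, against 8.11, 21.8 and 15.8 CPM in WT, and pair 2 was lower in KO. Its log2 fold change was 0.18 ± 0.14 (limma adjusted p = 0.769). At promoters H1fx had 0.35 ± 0.15 and H1f0 -0.04 ± 0.11, and in TES regions 0.08 ± 0.15 and -0.15 ± 0.14 (limma adjusted p from 0.590 to 0.945).

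Summed over the 6 genes, gene bodies had 223, 229 and 235 CPM in KO, against 126, 216 and 219 CPM in WT. The ratio of these sums, KO over WT, was 1.77, 1.06 and 1.07 for pairs 1 to 3. KO was higher in each pair and most so in pair 1, whose WT library had the lowest sum of the 6. Promoter sums were 137, 108 and 91.8 CPM in KO, against 105, 107 and 101 CPM in WT, and pair 3 was lower in KO. TES sums were 64.0, 81.0 and 80.1 CPM in KO, against 47.3, 88.5 and 60.7 CPM in WT.

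A share within the family does not depend on library size. Hist1h1a held 10.1%, 8.98% and 8.34% of the gene body reads of the 6 genes in KO, against 4.65%, 5.32% and 4.56% in WT. The KO shares were close to each other and all above the WT shares, also in pairs 2 and 3, where the sums were closest. Hist1h1e held 40.2%, 34.3% and 35.7% in KO, against 46.6%, 39.4% and 39.1% in WT. The Hist1h1e share was lower in KO in each pair, with overlapping groups. Shares are parts of 1 whole, so a higher share of Hist1h1a lowers the others. The Hist1h1e gene body signal itself was not lower (log2 fold change 0.16 ± 0.11, SE). Hist1h1c kept a share of 28.9% to 30.8% in KO and 30.3% to 32.2% in WT, and the shares of the other 3 genes overlapped widely.

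**Figure D3:**
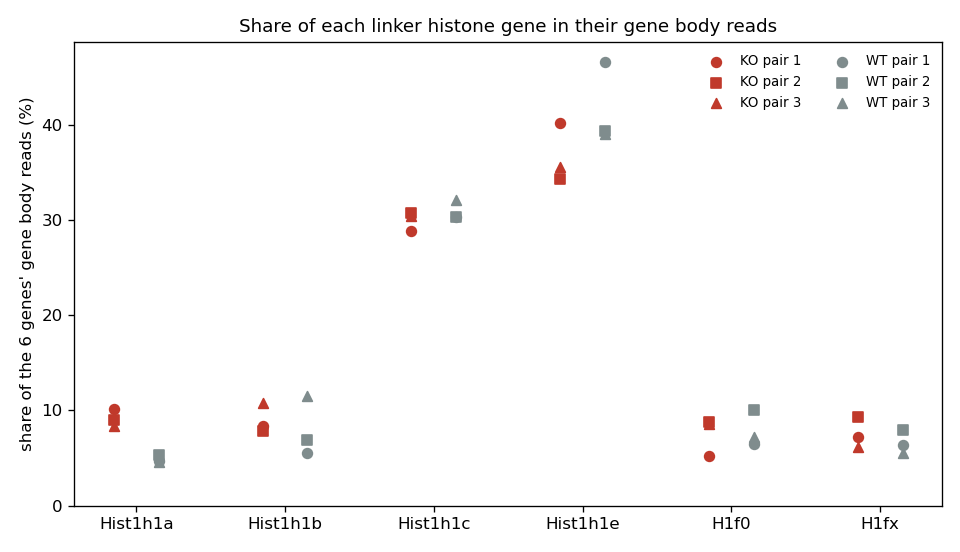
Share (%) of each gene in the gene body reads of the 6 linker histone genes, per KO (red, left) and WT (grey, right) library. Hist1h1a lies at 8.34% to 10.1% in KO and at 4.56% to 5.32% in WT, and in the other 5 genes the groups overlap.

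Promoter windows have 1 fixed length, so their levels can be compared between genes. In KO, Hist1h1e had 55.5 ± 14.9 CPM per kb at the promoter and Hist1h1c 49.2 ± 6.47, followed by Hist1h1a with 37.6 ± 11.3, H1f0 with 29.6 ± 4.63, H1fx with 28.7 ± 10.4 and Hist1h1b with 23.9 ± 3.93. In WT, Hist1h1e had 59.7 ± 7.97 CPM per kb and Hist1h1c 46.4 ± 6.95, followed by H1f0 with 30.5 ± 4.27, Hist1h1a with 29.4 ± 8.35, H1fx with 22.8 ± 4.11 and Hist1h1b with 20.0 ± 5.00. The ranges over libraries overlapped between neighbours in these orders, except for Hist1h1c and H1f0 in WT. Read within each library, some orders held throughout. In every WT library Hist1h1e lay above Hist1h1c, Hist1h1c above H1f0 and Hist1h1a above H1fx. In every KO library Hist1h1c lay above Hist1h1a, and Hist1h1a above H1f0. Among all 12107 promoters, those of Hist1h1e and Hist1h1c stood at percentile 98.6 or above in both groups, and that of Hist1h1a stood at percentile 96.6 in KO and 90.9 in WT. Over the gene body, with the GENCODE length, Hist1h1a had 38.7 ± 2.82 CPM per kb in KO and 16.9 ± 5.41 CPM per kb in WT. Hist1h1b, of almost the same length, had 38.1 ± 7.66 in KO and 29.0 ± 16.8 in WT. The Hist1h1a body level was thus equal to that of Hist1h1b within the spread in KO.

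The ratio of promoter to gene body reads, which underlies the pausing index, was compared within libraries. Hist1h1a had log2 ratios of 0.14, -0.23 and -0.50 in KO, against 1.52, 0.60 and -0.01 in WT. The KO ratio was lower in each pair, and the groups overlapped because the ratio varied widely between pairs. Over all genes, promoter reads were 6.88% of counts in KO library 3 and 6.04% in WT library 3, against 10.9% to 12.2% elsewhere. The difference was -0.90 ± 0.22 (SE, limma adjusted p = 0.275 over 12096 genes), and it was called when genes averaging under 50 counts in either region were left out (adjusted p = 0.0408). The other 5 genes had differences of -0.31 to -0.21, each with an interval that took in 0. All 6 were thus below 0, as were 48.9% of all genes. At an unadjusted p under 0.05, 1 of the 6 was lower, against 3.65% of all genes, and in 0 of 6 did all KO libraries lie below all WT libraries, against 0.934% of all genes. None was called, against 0.0248% of genes called higher and 0.00827% called lower.

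The TES to gene body ratio asks whether signal past the end of the gene changed relative to the gene. It was below 0 in all 6 genes, between -0.41 and -0.02, where 64.2% of all genes were below 0 with a median of -0.08. H1fx had the largest difference, with -1.14, -0.98 and -0.91 in KO, against -0.59, -0.53 and -0.69 in WT. All 3 KO ratios lay below all 3 WT ratios, as in 5.97% of all genes, yet the difference of -0.41 ± 0.17 was not called (SE, limma adjusted p = 0.673), and 5.84% of all genes were lower at an unadjusted p under 0.05. In Hist1h1a the difference was -0.34 ± 0.21 (limma adjusted p = 0.753), with pair 3 in the other direction. None was called, against 0.00828% of genes called higher and 0% called lower.

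**Figure D4:**
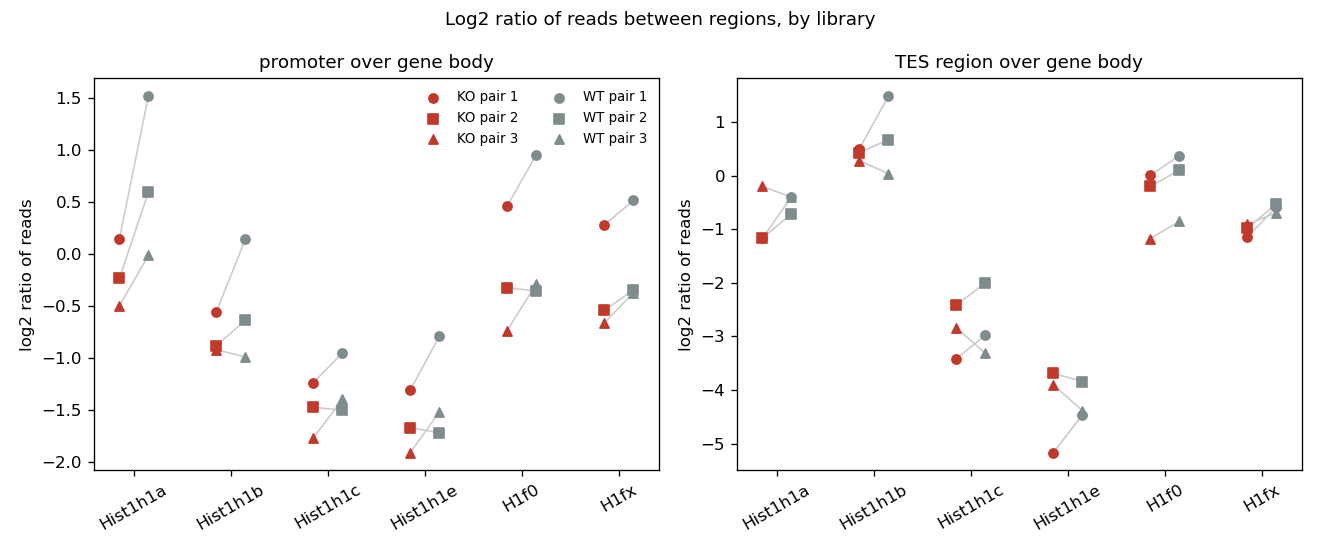
Log2 ratio of promoter to gene body reads (left) and of TES region to gene body reads (right) for each linker histone gene in the KO (red) and WT (grey) library of each pair, joined by a line. The promoter ratio of Hist1h1a is 0.14, -0.23 and -0.50 in KO, against 1.52, 0.60 and -0.01 in WT, and was lower in KO in all 3 pairs without being called.

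The linker histone genes were set beside the core histone genes of the same class. Of 61 listed core genes 32 were measured. In the gene body 3 were called higher and 0 lower, against 0.173% and 0.033% of all gene bodies. They were Hist1h3a, which encodes histone H3 (1.17 ± 0.20, limma adjusted p = 0.0825), Hist1h4c, which encodes H4 (0.81 ± 0.14, 0.0825), and Hist2h2aa2, an H2A gene with a near-identical copy (2.29 ± 0.22, 0.00402). In Hist2h2aa2 the groups overlapped, with 3.13, 22.4 and 21.5 CPM in KO, against 1.47, 3.52 and 4.39 CPM in WT. The core median was 0.61, against 0.40 in the 6 linker histone genes. Of the core gene bodies 31 of 32 were above 0, against 45.3% of all gene bodies. The pair medians were 1.22, 0.14 and 0.55 in the core genes and 0.88, 0.18 and 0.14 in the linker genes. Both groups of genes had their highest value in pair 1, whose WT library was low. Of the replacement core histone genes, whose products are made outside S phase as well, 8 of 9 were measured and 0 were called. Their median was 0.13, and H2afx, the H2A variant phosphorylated at DNA breaks, had 0.66 ± 0.17 (limma adjusted p = 0.275). Of the other linker histone genes Hist1h1t, H1foo, H1fnt and Hils1, known from germ cells, 0 of 4 were measured.

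Along the 2042.4 kb that hold the measured histone genes of chromosome 13, Hist1h1a had the highest gene body value of the 26 histone genes measured there. All 22 core genes had a value above 0, against 45.3% of all gene bodies, and none was above Hist1h1a. The start of Hist1h3a lies 1.28 kb and that of Hist1h4a 2.44 kb from the start of Hist1h1a. Hist1h3a had 16.4, 14.1 and 15.9 CPM over the gene body in KO, against 4.20, 8.86 and 8.29 CPM in WT. As in Hist1h1a, all KO libraries lay above all WT libraries, which held for 1.5% of all gene bodies. Other core gene bodies farther along chromosome 13 were separated in the same way, so this was not particular to these neighbours. Hist1h4a had a gene body value of 0.44 ± 0.12 (limma adjusted p = 0.286) with overlapping groups, and its promoter was called (0.66 ± 0.12, adjusted p = 0.0930). With the GENCODE ends, that promoter lies within the TES window of Hist1h3a, which was also called (0.59 ± 0.10, limma adjusted p = 0.0858). These calls therefore share reads. Hist1h1c, 24.9 kb away, and Hist1h1e, 141 kb away, each had a lower value than every core gene lying between it and Hist1h1a.

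**Figure D5:**
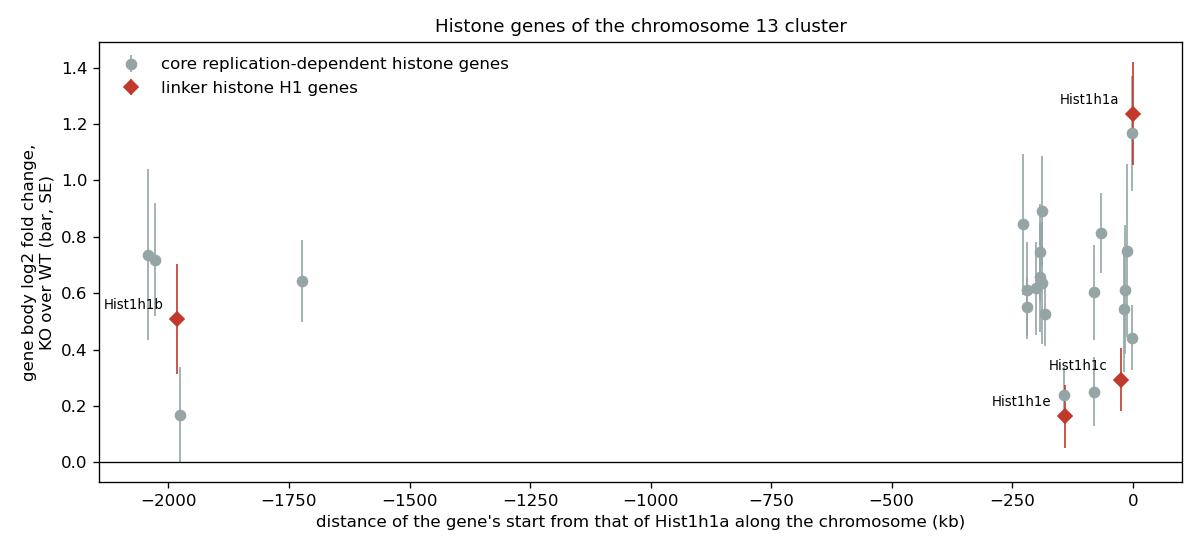
Gene body log2 fold change, KO over WT (bars, SE), of histone genes on chromosome 13 against the distance (kb) of each gene's start from that of Hist1h1a, for linker genes (red diamonds) and core genes (grey circles). Hist1h1a at 1.24 and its neighbour Hist1h3a at 1.17 are the highest, and all 26 genes lie above 0, against 45.3% of all gene bodies.

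The genes that act on histone genes and on H1 showed no called gene body. Of 18 genes for histone gene transcription and 3′ end processing 16 were measured, with a median of 0.07 and 0 called. Slbp, whose product binds the stem-loop shown above, had 0.26 ± 0.10, and E2f1, an S phase transcription factor gene, had 0.37 ± 0.15 (limma adjusted p = 0.544 and 0.572). Of 19 genes for H1 chaperones and chromatin partners 17 were measured, with a median of 0.05 and 0 called. The smallest p belonged to Ptma, which encodes prothymosin alpha, a chaperone of H1. Ptma had 57.0, 49.3 and 48.9 CPM in KO, against 39.8, 41.7 and 34.7 CPM in WT. The groups did not overlap, as in 1.5% of all gene bodies, but its 0.41 ± 0.08 missed the threshold (limma adjusted p = 0.125). Nasp, the gene for a chaperone that carries H1 and H3, had 0.27 ± 0.07 (limma adjusted p = 0.286).

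Genes of DNA replication moved with WT library 1 as the clustered histone genes did. Their 24 gene bodies summed to 883, 803 and 1205 CPM in KO, against 607, 767 and 1275 CPM in WT, and pair 1 alone stood out. The median was 0.23, with pair medians of 0.58, -0.02 and 0.07, and 0 were called. Of the 24 gene bodies 23 were above 0, against 45.3% of all gene bodies. Rrm2, which encodes a subunit of ribonucleotide reductase, had 0.62 ± 0.16, and Mcm6, a subunit of the replicative helicase, 0.31 ± 0.10 (limma adjusted p = 0.264 and 0.436). Their part in the Hist1h1a call was not tested.

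Across the 6 libraries, log2 CPM of the member gene bodies was correlated with Pearson's r between 0.53 (Hist1h1a and H1f0) and 0.94 (Hist1h1b and Hist1h1c), a description over libraries that share depth and pairing. The gene bodies most like the mean of the 4 clustered genes, of 12014 averaging 50 counts or more, were Tmem170b (r = 0.985), the H2B gene Hist1h2bh (0.980), Spc24 (0.979), which encodes a kinetochore protein, Tent5a (0.979), which encodes a noncanonical poly(A) polymerase, and Tmpo (0.975), which encodes a lamina protein. Of the 50 most alike, 7 were core histone genes. In all 5 WT library 1 was the lowest of the 6 libraries, at 49.4 CPM for Tmem170b and 2.39 CPM for Spc24. None of these 5 was called.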

How the data were processed

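The authors mapped reads to GRCm38 (mm10) and counted them per gene and region with HOMER. The submitters' notes also list MACS2, Picard, BWA, Trimmomatic and bcl2fastq 2.20. The deposited counts are whole numbers without normalization, and genes lacking KO signal had been removed by the authors, which can hide genes that fell to nothing in KO. The deposited log2 CPM, made by the authors from these counts with TMM and voom, served as an alternative only.

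Here all 36321 regions were scaled with TMM and fitted together with limma-voom (R 4.3.3, edgeR 4.0.16, limma 3.58.1, DESeq2 1.42.0), with genotype as the effect and the replicate pair as a block. Tests were two-sided with Benjamini-Hochberg adjustment, and a call needed an adjusted p under 0.1. Fold changes are given ± SE and levels as mean ± SD. Ratios between regions were log2 ratios of counts with 0.5 added, for genes with at least 10 counts on average in both regions, also tested with limma, pair block included and with a trend on the mean log2 ratio. Groups and pair numbers came from the sample titles, and pairs of biological replicates are described in the study. Same-numbered libraries deviated together from their group means, with correlations of 0.61 to 0.70 at promoters, 0.73 to 0.87 in gene bodies and 0.56 to 0.75 in TES regions. Within each group no libraries were copies (chi-square per degree of freedom 28.5 to 76.4). KO libraries were not compared with WT libraries in this check. The median SE (log2) was 0.17 at promoters, 0.09 over gene bodies and 0.20 in TES windows, and PCR copies are not independent molecules.

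Every linker histone gene is described. Of each other list, members called over all regions and the 2 gene bodies with the smallest p could be named, plus the 5 gene bodies most like the clustered genes. Hist1h4a was called at its promoter, and Sox2 and Nes are named as defining markers after their values were seen. Neuron (6 of 7 measured), astrocyte (1 of 4), oligodendrocyte lineage (4 of 6) and endothelial and mural markers (1 of 5) gave 0 calls. The members and lists were chosen with earlier results of these data known. The fit was tested on simulated counts of the same size. It recovered 96% of the regions given a log2 change of 1 in either direction. Of its 229 calls, 33 (14.4%) were false, a larger share than an adjusted p under 0.1 aims at. Sequences come from RefSeq GRCm38.p6, where all 6 genes were matched. Alternatives were edgeR's quasi-likelihood test, DESeq2, other scalings and filters, no block, and leaving out libraries or pairs.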

Additional observations from a re-analysis of the deposited data

How the results depend on the processing

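No linker histone region was called lower in KO in any fit run. Of the 18 regions, 2 were called higher with DESeq2, with RLE scaling and without X- and Y-linked genes (chosen after seeing the data), and 0 to 5 when libraries or pairs were left out. With a pair block, leaving out 1 library also takes the weight from its partner. With no replicate block, limma called 0 linker histone regions and 0 of all regions (65 promoters, 35 gene bodies and 27 TES windows had an unadjusted p under 0.05). The estimate for the Hist1h1a gene body hardly moved under no block, at 1.25 against 1.24.

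Over all regions, 44 were called higher and 5 lower in KO. Higher calls numbered 18 with library totals only, 71 with each region class fitted by itself, 110 without X- and Y-linked genes, 0 with no replicate block, and 7 to 394 when libraries or pairs were left out. Lower calls numbered 3 with edgeR, 2 with library totals only, 3 with each region class by itself, 2 on the deposited log2 values, 15 without X- and Y-linked genes, 0 with no replicate block, and 4 to 152 when libraries or pairs were left out. The promoter ratio gave 3 higher and 1 lower calls, against 0 and 0 with no replicate block and 137 and 43 with a minimum mean of 50 counts. With an offset of 2 it gave 2 lower calls, and with a pair left out 10 to 256 higher and 2 to 97 lower. The TES ratio gave 1 higher and 0 lower calls, against 0 higher with no replicate block, 5 higher with a minimum of 50 counts, and 3 to 18 higher and 1 to 41 lower with a pair left out. The cause was not tested.

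Directions changed when libraries or pairs were left out, in values that were not called. The range was -0.054 to 0.31 for the Hist1h1c promoter, -0.082 to 0.41 for its TES region, -0.21 to 0.037 for the Hist1h1e promoter, -0.079 to 0.35 for its gene body and -0.0050 to 0.20 for its TES region. It was -0.30 to 0.12 for the H1f0 TES region, -0.077 to 0.26 for that of H1fx, -0.42 to 0.032 for the Hist1h1c TES ratio and -0.27 to 0.32 for that of Hist1h1e.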
